A study of Mus musculus with 8 samples.

Results

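The genes described here build the DNA replication machinery and supply it with nucleotides. They were 37 named genes in 4 role groups: origin licensing and the replicative helicase, DNA polymerases with the single-strand binding protein, the sliding clamp with its loader and the enzymes of Okazaki fragments, and nucleotide synthesis. They were found by symbol in the gene column of the deposited table, and 35 of the 37 were found among its 17589 genes, in 146 transcript entries. Cdt1 and Gins2 were not analysed here. All 35 passed the filter on low values (1 FPKM or more on average across all 8 libraries), which left 13483 genes for testing. FPKM count fragments per kilobase of each transcript, relative to library size, so the level of an entry is per length. The level of a gene is a sum over entries of unlike length, and short entries can make up much of it. For Pola1 an entry of 690 bases gave 67.1%. Levels can therefore be compared between genes only roughly.

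The study sequenced mRNA from spermatogonia, the mitotic male germ cells of the testis, taken from C57BL/6 mice at 6 days after birth. Both groups carried the GOF/deltaPE-Oct4/GFP reporter, in which GFP marks cells that use the Oct4 gene, and GFP-positive cells were collected by fluorescence-activated sorting. The 4 libraries of the first group are labelled Control and the 4 of the second KDM1A KO, a loss of the histone demethylase KDM1A (LSD1); the protocol text names the second group Kdm1a-cKO. The Cre driver, the deleted exons and the genotype of the controls beyond that label are not stated in the sources used here. Nor do the labels say that each library is a separate animal, so the p-values reflect only how much these libraries vary, and that variation may be technical.

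A cell copies its genome once per division. In G1 the origin recognition complex and CDC6 load the MCM2 to MCM7 ring onto DNA, and geminin (Gmnn) later blocks reloading. In S phase CDC45 and the GINS proteins turn the ring into a helicase, polymerase alpha and its primase lay down primers, the RFC loader places the PCNA ring, and polymerases delta and epsilon extend the strands while RPA covers single-stranded DNA. Ribonucleotide reductase, thymidylate synthase and thymidine kinase provide the deoxynucleotides. Many of these genes are transcribed in late G1 and S phase under E2F factors, and spermatogonia of this age divide repeatedly before meiosis.

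The label of the knockout was checked first. Kdm1a (ENSMUSG00000036940, chr4:136550540-136602723, minus strand, GRCm38) stood at 53.7, 54.0, 92.0 and 48.1 FPKM in control replicates 1 to 4 and at 14.2, 14.1, 17.3 and 14.9 in knockout replicates 1 to 4, a log2 change of -1.92 (limma adjusted p = 6.88e-05). By inference from the deposited FPKM, which may have been scaled, control libraries held 60250000 to 68000000 fragments and knockout libraries 45000000 to 62250000, the lowest being knockout replicate 2. Knockout replicate 2 stood apart: it was the highest of the 4 knockouts for 28 of the 35 genes (80.0%), against 47.7% of all genes tested. The germ cell markers Ddx4 (176 to 216 FPKM in the 8 libraries) and Dazl (368 to 469) were abundant. The summed level of 10 spermatogonial markers was 1592 to 1683 FPKM in controls and 1449 to 1899 in knockouts, with 1 called higher and 2 lower. Most of that sum was Uchl1 (620 to 983 FPKM) and Dazl. Zbtb16 and Sall4, named after their values were seen, were lower in every knockout than in every control. Zbtb16 was 54.3 to 71.8 FPKM in controls and 12.8 to 29.5 in knockouts, and Sall4 was 72.2 to 83.2 and 40.8 to 59.8. The other markers of that list overlapped between the groups. Markers of Sertoli cells summed to 17.98 to 53.0 FPKM in controls and 39.8 to 63.9 in knockouts (8 of 9 found, 7 tested, 1 called higher). The 53.0 was control replicate 1, and the other 3 controls, at 17.98 to 24.5, lay below every knockout. Of the Sertoli list only Rhox5, named after its values were seen, parted the groups. It was 2.33 to 4.35 FPKM in controls and 5.50 to 17.6 in knockouts, and gave 17.6 of the 39.8 in knockout replicate 2. The other Sertoli markers overlapped between the groups. Markers of peritubular and endothelial cells summed to 8.18 to 10.5 in controls and 11.4 to 15.1 in knockouts, without overlap (7 of 7 found, 4 tested, 1 called higher). Single markers of that list are named here after their values were seen. Pecam1 was 1.10 to 1.69 FPKM in controls and 3.91 to 5.34 in knockouts, and Des was 0.324 to 0.403 and 0.493 to 1.26. Acta2, Myh11, Tagln, Cdh5 and Kdr overlapped between the groups. Markers of Leydig cells summed to 1.78 to 2.65 and 1.91 to 3.27 (2 of 6 found), and those of macrophages and blood to 2.16 to 3.03 and 2.90 to 4.77 (3 of 7 found). No marker that was found was at 0 in every library, and the part of other cells in the results below was not tested.

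Replication genes were strongly expressed in both groups. Their control means ran from 8.48 FPKM for Gins3 to 173.6 for Mcm7, with a median of 54.7 against 11.2 over all genes tested. In the knockout 8 genes were higher (Prim1, Prim2, Rfc2, Rfc3, Rfc4, Rrm2, Orc6 and Mcm6), 1 was lower (Mcm2) and 26 were not called by limma at a Benjamini-Hochberg adjusted p under 0.05. That is 22.9% higher and 2.86% lower, where 25.3% of all genes tested were called higher and 12.1% lower, so the share of replication genes called higher was near the background. The median log2 change over the 35 genes was 0.16, against 0.09 over all genes tested, and it was 0.05 against 0.07 without knockout replicate 2. In 32 of 35 the log2 change lay between -0.5 and 0.5, and only Prim1 passed 1. At an unadjusted p under 0.05, 14 of the 35 genes would be counted. In this bulk RNA, fewer cells of a type and less RNA per cell cannot be told apart.

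By the 8 library values alone, all 4 knockouts lay above all 4 controls for 7 genes (the called genes other than Rfc3 and Orc6, with geminin, which was not called), against 26.1% of all genes tested. All 4 lay below for Mcm2, against 12.5%, and the groups overlapped for the other 27. The median coefficient of variation of the 35 genes was 8.26% among controls and 13.5% among knockouts, and 6.46% among the knockouts without replicate 2. Leaving that library out gave 8 higher (28.4% of all genes tested) and 2 lower (15.1%): Orc6 lost its call (adjusted p = 0.060), while Gins3 gained one higher and Rpa1 one lower.

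The scale of the table mattered. FPKM totals differed between libraries, and Mir5105, a small RNA gene, held 61.3% to 77.1% of each control total and 29.4% to 52.7% of each knockout total. Scaling by median ratios moved the median log2 change of all genes from 0.09 to -0.01 and gave 6 replication genes higher (19.5% of all genes tested) and 4 lower (18.2%): Mcm6 and Orc6 lost their calls, and Mcm4, Mcm7 and Rpa1 were called lower beside Mcm2. Forcing equal FPKM totals moved the median of all genes to 0.74 and gave 33 of the 35 higher (70.8%) and 0 lower (1.12%). In that setting a gene whose change was under 0.74 lay below the median gene, even where it was called higher. Small changes of single genes below are therefore relative to the deposited scale, and ratios between 2 genes in the same library, which no scaling can alter, are given beside them.

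**Figure D1:**
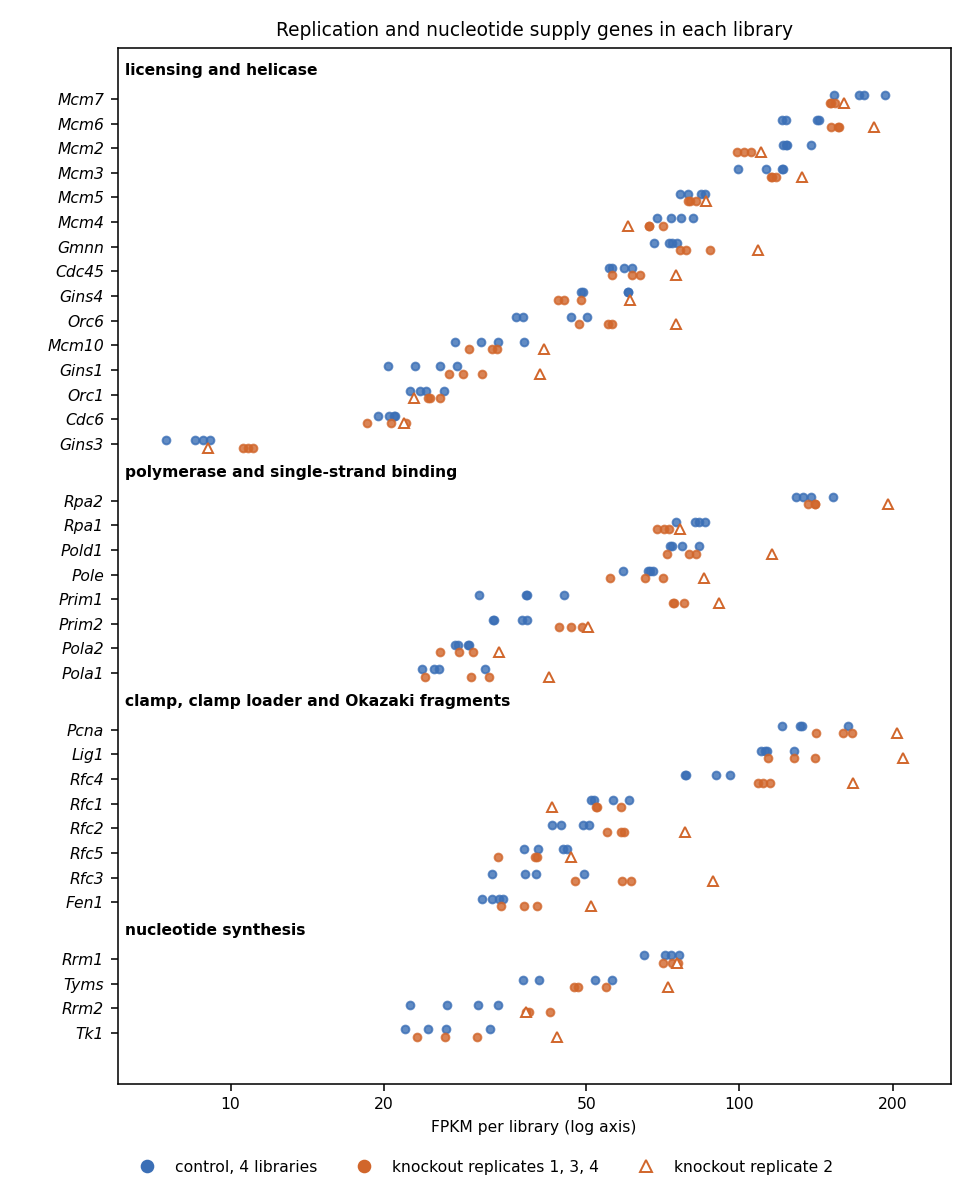
FPKM of the 35 replication and nucleotide supply genes in each library (log axis), in 4 role groups, with controls as blue circles, knockout replicates 1, 3 and 4 as orange circles and knockout replicate 2 as open triangles. The groups part for Prim1 and Prim2, and the triangle lies to the right of the other knockouts for 28 of the 35 genes.

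**Figure D2:**
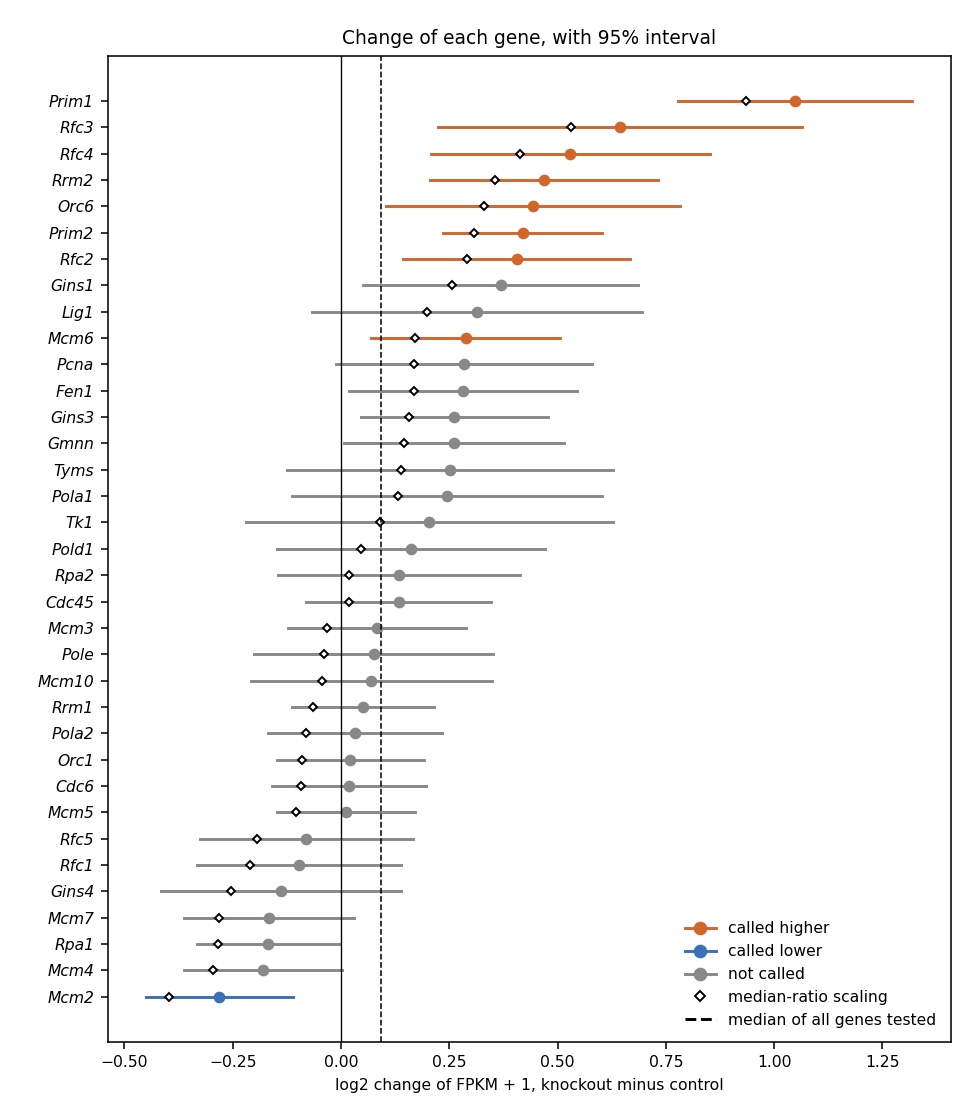
Log2 change of FPKM + 1, knockout minus control, for each gene with its 95% interval on the deposited scale, and the same change after median-ratio scaling as an open diamond. Orange marks the 8 genes called higher and blue the 1 called lower, and the dashed line is the median of all genes tested, 0.09.

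Of the 15 licensing and helicase genes tested, 2 were higher, 1 was lower and 12 were not called. That is 13.3% higher and 6.67% lower, against 25.3% and 12.1% of all genes tested. Their median log2 change was 0.07, against 0.09 over all genes; it was 0.02 without control replicate 2, 0.04 without knockout replicate 2 and 0.12 without control replicate 4. The loading factors Orc1, the largest subunit of the origin recognition complex, and Cdc6 barely differed. Orc1 stood at 24.1 ± 1.57 FPKM in controls and 24.5 ± 1.17 in knockouts (SD, n = 4 each, as for all means below), with a 95% interval of the log2 change from -0.15 to 0.19. Cdc6 stood at 20.5 ± 0.748 and 20.8 ± 1.64, with an interval from -0.16 to 0.20.

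Orc6, the smallest subunit of the origin recognition complex, was 37.5, 36.4, 46.7 and 50.1 FPKM in the controls and 48.3, 75.2, 56.1 and 55.1 in the knockouts. The groups overlapped, since control replicate 4 lay above knockout replicate 1. It rose by 0.44 on the log2 scale (SE 0.15, limma adjusted p = 0.044), a call that was lost under median-ratio scaling (adjusted p = 0.071) and when any of 6 single libraries was left out (control replicates 1, 2 and 3 and knockout replicates 2, 3 and 4). Geminin was 72.6, 73.8, 67.9 and 75.4 FPKM in controls and 78.4, 108.8, 87.7 and 76.4 in knockouts. All 4 knockouts lay above the controls (replicate 4 narrowly), with a log2 change of 0.26 that was not called (limma adjusted p = 0.099).

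The 6 MCM subunits assemble in equal numbers into the ring that becomes the replicative helicase, and their RNAs were not at equal levels in either group. Their summed level was 703 ± 49.2 FPKM in the controls and 689 ± 30.3 in the knockouts, with overlapping libraries. The shares of the subunits in that sum differed between the groups, with Mcm6 and Mcm2 at the ends. The 250 bases before the RefSeq start of these genes (GRCm38.p6) are shown 5′ to 3′ for the pair, with E2F-type motifs and CCAAT boxes in capitals; Mcm6 is at chr1:128359706-128359955 and Mcm2 at chr6:88898781-88899030, both on the minus strand.
Mcm6: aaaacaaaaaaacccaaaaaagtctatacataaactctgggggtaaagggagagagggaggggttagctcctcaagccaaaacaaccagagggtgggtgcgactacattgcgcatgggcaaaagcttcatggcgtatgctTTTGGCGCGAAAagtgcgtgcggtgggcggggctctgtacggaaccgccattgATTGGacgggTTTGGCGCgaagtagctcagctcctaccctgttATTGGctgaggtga
Mcm2: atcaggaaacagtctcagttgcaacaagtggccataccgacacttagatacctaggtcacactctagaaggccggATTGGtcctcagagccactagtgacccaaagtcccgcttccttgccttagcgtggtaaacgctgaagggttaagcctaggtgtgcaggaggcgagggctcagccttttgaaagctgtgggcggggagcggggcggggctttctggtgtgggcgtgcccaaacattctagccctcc

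Mcm6 was 142.4, 121.1, 123.5 and 143.3 FPKM in the controls and 151.1, 183.6, 157.0 and 156.4 in the knockouts. Every knockout lay above every control, and the mean was 1.22-fold higher (log2 change 0.29, SE 0.10, limma adjusted p = 0.042). The call was lost under median-ratio scaling (0.17, adjusted p = 0.14) and when any of 5 single libraries was left out, namely control replicates 1, 2 and 3 and knockout replicates 3 and 4. Mcm2 was 138.0, 123.8, 121.9 and 123.7 FPKM in the controls and 102.1, 110.2, 105.5 and 99.1 in the knockouts. Every knockout lay below every control, with control replicate 1 the highest, and Mcm2 fell by 0.28 on the log2 scale (SE 0.08, limma adjusted p = 0.017), a direction that turned under equal totals (0.44, adjusted p = 0.11). Without control replicate 1 its adjusted p was 0.051, and without knockout replicate 4 it was 0.055.

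The ratio of Mcm6 to Mcm2 does not depend on scaling. It was 1.03, 0.978, 1.01 and 1.16 in the controls and 1.48, 1.67, 1.49 and 1.58 in the knockouts, with no overlap and means of 1.05 ± 0.0785 and 1.55 ± 0.0870. Mcm6 made up 18.8% ± 0.524 of the summed MCM level in controls and 23.5% ± 1.05 in knockouts, and Mcm2 made up 18.1% ± 1.13 and 15.1% ± 0.378. Mcm7 was the most abundant subunit in the controls (173.6 ± 16.3 FPKM, 154.2 ± 4.59 in knockouts), and Mcm6 had the highest mean in the knockouts, although in knockout replicate 1 Mcm7 (151.4) was level with Mcm6 (151.1). Mcm4 was 75.0 ± 5.27 and 66.1 ± 4.28 FPKM, Mcm3 was 113.8 ± 10.4 and 120.4 ± 8.27, and Mcm5 was 81.2 ± 4.28 and 81.8 ± 3.10. None of these 4 was called on the deposited scale. Mcm4 (-0.30, limma adjusted p = 0.025) and Mcm7 (-0.28, adjusted p = 0.015) were lower under median-ratio scaling. Under equal totals Mcm7 turned to higher (0.55, adjusted p = 0.045), though below the median of all genes there (0.74). The gene pairs for ratios were chosen after the values were seen, so the ratios are given without a test.

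Among the factors that activate the helicase, none was called. Cdc45, which joins the ring with GINS, was 58.1 ± 2.74 FPKM in controls and 64.1 ± 7.97 in knockouts. Of the GINS subunits, Gins1 was 24.3 ± 3.28 and 31.9 ± 6.13 (log2 change 0.37, limma adjusted p = 0.066), Gins3 was 8.48 ± 0.718 and 10.4 ± 0.926 (0.26, adjusted p = 0.058), and Gins4 was 54.7 ± 6.55 and 49.7 ± 7.69 (-0.14, adjusted p = 0.41). Gins4 was called lower by limma with small RNA genes removed and totals made equal (-0.27, adjusted p = 0.018). It was also lower under median-ratio scaling without knockout replicate 2 (-0.33, adjusted p = 0.0095). Under equal totals it was called higher (0.57, adjusted p = 0.036), though below the median of all genes there (0.74). Gins1 divided by Gins4 was 0.382 to 0.530 in controls and 0.593 to 0.668 in knockouts, without overlap. Knockout replicate 2 was the lowest knockout for Gins3, at 9.01 FPKM, and the highest for Gins1, at 40.6. Mcm10, which helps to start the fork, was 32.5 ± 4.23 and 34.2 ± 5.05.

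The largest change of the 35 genes was in primase, the enzyme that makes the RNA primer at every origin and Okazaki fragment. Prim1 encodes its catalytic subunit and Prim2 the regulatory subunit that holds an iron-sulfur cluster; both rose, and the subunits of polymerase alpha to which they are bound were not called. Prim1 (ENSMUSG00000025395 in the files) lies at chr10:128015168-128030037 on the plus strand of GRCm38. The 250 bases before its RefSeq start, chr10:128014965-128015214 on the plus strand of GRCm38.p6, hold 1 CCAAT box, in capitals, and none of the 6 E2F-type motifs searched.
Prim1: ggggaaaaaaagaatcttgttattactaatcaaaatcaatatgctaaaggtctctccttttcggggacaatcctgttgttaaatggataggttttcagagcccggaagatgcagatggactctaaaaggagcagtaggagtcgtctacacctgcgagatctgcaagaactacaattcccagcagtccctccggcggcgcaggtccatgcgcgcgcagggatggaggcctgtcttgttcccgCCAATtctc

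Prim1 was 38.3, 30.8, 38.1 and 45.2 FPKM in the controls and 74.3, 91.3, 77.8 and 74.2 in the knockouts. The lowest knockout stood well above the highest control. The mean was 2.09-fold higher, 38.1 ± 5.87 against 79.4 ± 8.10 FPKM, with a log2 change of 1.05 (SE 0.12, 95% interval 0.78 to 1.32, limma adjusted p = 0.000202), and 1.98-fold higher without knockout replicate 2. A single protein-coding entry carried 94.4% of the Prim1 level in controls and 94.6% in knockouts. Prim2 was 33.0, 32.8, 37.3 and 38.2 FPKM in the controls and 44.1, 50.4, 49.1 and 46.6 in the knockouts. Again no control reached a knockout, and the mean was 1.35-fold higher (log2 change 0.42, SE 0.08, limma adjusted p = 0.0035). Of the 35 genes, Prim1 and Prim2 were the 2 that kept the same call under every alternative run.

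The partners of primase gave other values. Pola2, the accessory subunit of polymerase alpha, was 28.6 ± 0.901 FPKM in controls and 29.4 ± 3.36 in knockouts, with a 95% interval of the log2 change from -0.17 to 0.23. Prim1 divided by Pola2 was 1.10 to 1.54 in controls and 2.59 to 2.88 in knockouts. Prim1 divided by Prim2 was 0.938 to 1.18 and 1.59 to 1.81, without overlap. Pola1, the catalytic subunit of polymerase alpha, is on the X chromosome and was 26.5 ± 3.46 and 32.1 ± 7.57 FPKM as a sum of 3 entries (log2 change 0.24, limma adjusted p = 0.26). Its protein-coding entry alone was 11.6, 8.85, 11.01 and 11.3 FPKM in controls and 9.21, 7.25, 8.05 and 8.12 in knockouts, where control replicate 2 lay below knockout replicate 1. On protein-coding entries alone the direction of Pola1 turned, to -0.35 (limma adjusted p = 0.027), which leave out a short entry annotated as a processed transcript that held 58.5% of its control level and 72.6% of its knockout level.

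The 2 polymerases of the leading and lagging strand were not called. Pole, the catalytic subunit of polymerase epsilon, was 64.9 ± 4.05 FPKM in controls and 69.2 ± 12.3 in knockouts. Its protein-coding entries held 48.6% to 75.8% of the level and summed to 41.7 ± 5.84 and 38.1 ± 3.80. The longest of them was 13.6 FPKM in knockout replicate 2 and 30.4 to 44.3 in the other libraries. Pold1, the catalytic subunit of polymerase delta, was 76.9 ± 4.69 and 87.4 ± 19.5. It stood at 115.9 in knockout replicate 2 and at 72.0 to 82.2 in the other knockouts. RPA binds the single strands exposed by the helicase. Its large subunit Rpa1 was 81.6, 75.2, 83.3 and 85.6 FPKM in controls and 72.7, 76.5, 68.8 and 71.2 in knockouts, which overlap only through control replicate 2 and knockout replicate 2 (log2 change -0.17, limma adjusted p = 0.096). It was called lower under median-ratio scaling (-0.28, adjusted p = 0.0059). Under equal totals it turned to higher (0.55, adjusted p = 0.045), though below the median of all genes there (0.74). The middle subunit Rpa2 was 138.3 ± 10.1 and 153.3 ± 28.2, and Rpa2 divided by Rpa1 was 1.63 to 1.78 in controls and 1.88 to 2.56 in knockouts.

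Of the 8 genes for the clamp, its loader and Okazaki fragments, 3 were higher and 5 were not called, with a median log2 change of 0.30, and 0.18 without knockout replicate 2. The background of higher calls was 25.3%, and the 3 calls were lost without control replicate 1 or 2. All 3 were small subunits of RFC, the 5-part machine that opens the PCNA ring and closes it around DNA: Rfc2, Rfc3 and Rfc4. The 250 bases before the RefSeq start of Rfc3 (chr5:151651209-151651458, minus strand, GRCm38.p6) are shown because it was the loader subunit with the largest change; capitals mark the E2F-type motif TTTCGCGC that begins 10 bases before the start, and a CCAAT box.
Rfc3: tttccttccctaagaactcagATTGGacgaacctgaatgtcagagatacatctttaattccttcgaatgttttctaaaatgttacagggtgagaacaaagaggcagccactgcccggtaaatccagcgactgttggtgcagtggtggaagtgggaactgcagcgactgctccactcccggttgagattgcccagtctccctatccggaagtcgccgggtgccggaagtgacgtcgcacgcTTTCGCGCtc

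Rfc3 was 37.9, 32.6, 49.5 and 39.9 FPKM in the controls and 47.5, 88.6, 61.3 and 58.7 in the knockouts. Knockout replicate 1 lay below control replicate 3, and knockout replicate 2 was far above the rest. The mean was 1.60-fold higher, or 1.40-fold without that library (log2 change 0.64, SE 0.19, limma adjusted p = 0.023). Rfc4 was 78.7, 78.0, 89.8 and 95.6 FPKM in controls and 108.8, 166.8, 114.8 and 111.4 in knockouts. The groups did not overlap, and the mean was 1.47-fold higher, or 1.31-fold without knockout replicate 2 (log2 change 0.53, adjusted p = 0.018). Rfc2 was 44.6, 42.8, 49.2 and 50.7 in controls and 54.9, 78.2, 58.6 and 59.4 in knockouts, without overlap (1.34-fold, log2 change 0.41, limma adjusted p = 0.023). Without control replicate 1 or 2, the adjusted p of all 3 lay between 0.051 and 0.067, and that of Rfc3 was 0.051 without knockout replicate 3.

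The other loader subunits were not called. The fourth small subunit, Rfc5, was 42.2 ± 3.84 FPKM in controls and 40.0 ± 5.39 in knockouts (95% interval of the log2 change -0.33 to 0.17). The large subunit Rfc1, which binds PCNA and the primer end, was 55.0 ± 4.55 and 51.6 ± 6.45 (-0.33 to 0.14). That level is a sum of 7 entries, and the protein-coding entry held 30.0% to 37.5% of it, at 18.1 ± 1.56 and 16.7 ± 1.95 FPKM. An Rfc1 entry not in GENCODE M21 was 0.000104 FPKM in knockout replicate 2 and 9.27 to 19.8 in the other libraries. Rfc5 and Rfc1 were called higher under equal totals, at 0.63 and 0.61, though below the median of all genes there (0.74). Rfc5 was called lower under median-ratio scaling without knockout replicate 2 (-0.25, limma adjusted p = 0.036). Relative to Rfc5, Rfc4 was 1.94 to 2.09 in controls and 2.81 to 3.57 in knockouts, Rfc3 was 0.812 to 1.10 and 1.41 to 1.89, and Rfc2 was 1.06 to 1.18 and 1.46 to 1.67. Each of these ratios separated the groups. Rfc3 divided by Rfc4 did not, at 0.417 to 0.551 and 0.436 to 0.534.

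**Figure D3:**
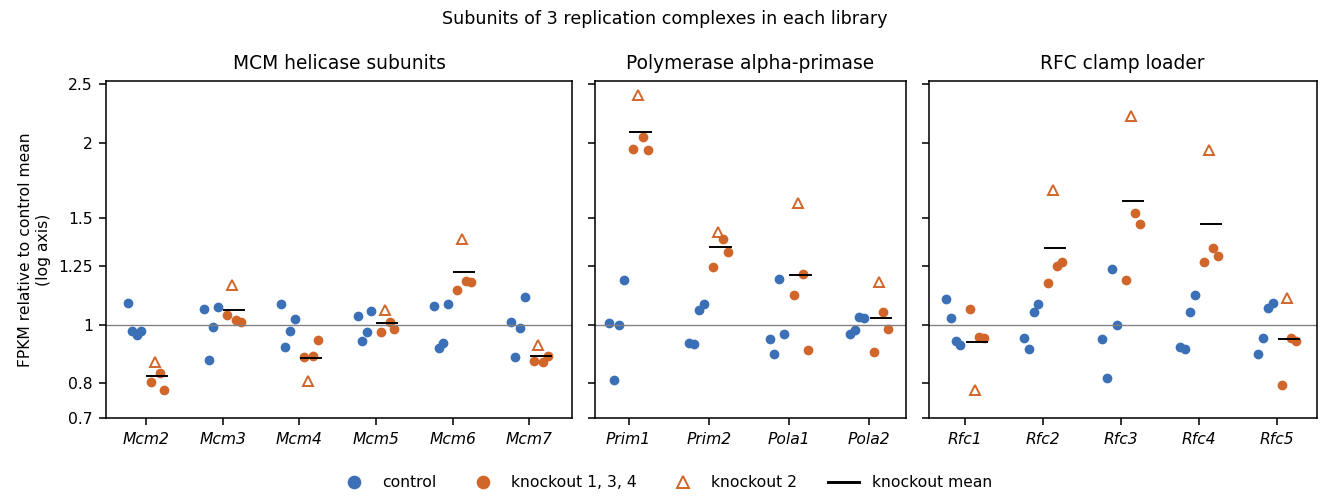
FPKM of each subunit divided by its control mean (log axis) in each library, for the MCM ring, polymerase alpha with primase, and the RFC clamp loader, with the knockout mean as a black bar. The bars of Mcm6, Prim1, Prim2, Pola1, Rfc2, Rfc3 and Rfc4 lie above 1. Of these Pola1, a sum of 3 entries, was not called, and its protein-coding entry alone had a lower mean in the knockouts. Those of Mcm3, Mcm5 and Pola2 lie slightly above it, and those of Mcm2, Mcm4, Mcm7, Rfc1 and Rfc5 under it.

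Pcna, the clamp itself, was 131.7, 121.4, 132.5 and 163.8 FPKM in controls and 141.2, 203.9, 166.1 and 159.9 in knockouts. The groups overlapped through control replicate 4, and the log2 change of 0.28 was not called (limma adjusted p = 0.12). Fen1, the nuclease that trims the flap of an Okazaki fragment, was 33.0 ± 1.35 and 40.7 ± 7.41 (0.28, adjusted p = 0.088). Lig1, the ligase that seals the fragments, was 110.0, 112.4, 113.5 and 127.8 FPKM in controls and 113.7, 209.3, 140.9 and 128.2 in knockouts (0.31, adjusted p = 0.17).

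For Lig1, Pold1 and Mcm10, chosen after their values were seen, the excess of knockout replicate 2 lay in entries that GENCODE M21 does not annotate as protein-coding. This did not hold across the 35 genes: on protein-coding entries alone that library was still the highest knockout for 24 of them, against 28 on all entries. Of the 22 genes with other entries, its protein-coding share was the lowest of the 8 libraries for 7 and the highest for 5. For Lig1 the protein-coding entries summed to 91.0 FPKM in that library and to 79.7 to 92.9 in the other 7, while the remaining entries summed to 118.3 there and to 20.7 to 48.0 elsewhere. A single Lig1 entry that is not in GENCODE M21 gave 114.6 of those 118.3 FPKM. For Pold1 the protein-coding entries were 47.3 FPKM in knockout replicate 2, the lowest of the 8, and the remaining entries 68.6, the highest. Mcm10 had the same pattern, 16.1 and 25.2. On protein-coding entries alone the log2 change was 0.02 for Lig1, -0.06 for Pold1 and -0.17 for Mcm10, none of them called. Rfc4 had a retained-intron entry at 16.5 FPKM in knockout replicate 2 and at no more than 0.00102 in the other 7 libraries, and its call held on protein-coding entries (0.49, limma adjusted p = 0.0096). Over all replication genes, protein-coding entries alone gave 8 higher and 2 lower, Pola1 joining Mcm2, against 27.1% and 13.1% of the 11504 genes tested that way.

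**Figure D4:**
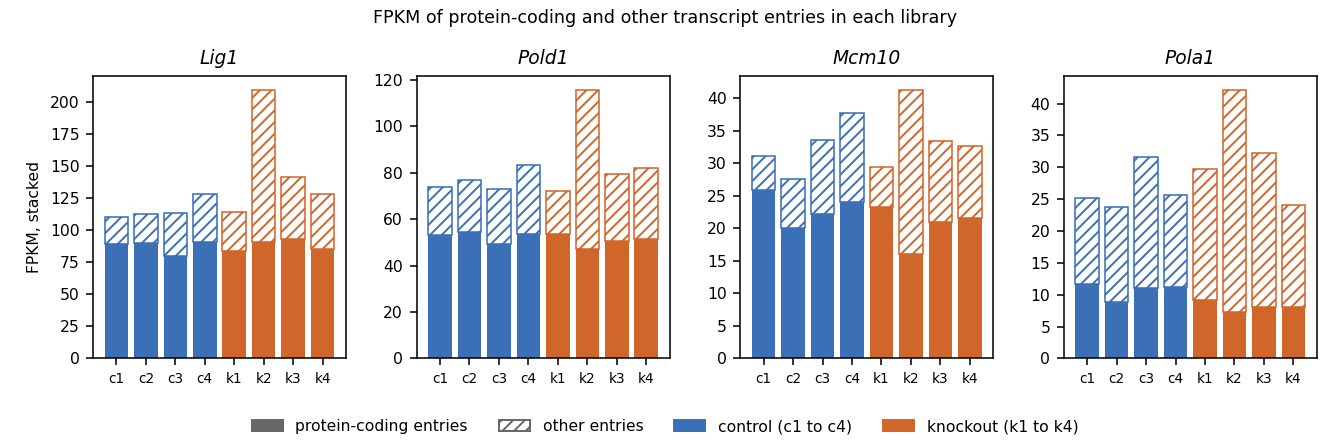
FPKM of Lig1, Pold1, Mcm10 and Pola1 in each library, stacked as protein-coding entries (solid) and all remaining entries (hatched), with controls c1 to c4 in blue and knockouts k1 to k4 in orange. In knockout replicate 2 (k2) the hatched part is the tallest for all 4 genes, while the solid part is no taller than the tallest of the other libraries.

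Among the 4 nucleotide synthesis genes, 1 was higher and 3 were not called (background 25.3% higher and 12.1% lower). Ribonucleotide reductase turns ribonucleotides into deoxyribonucleotides, and its small subunit Rrm2 is made in S phase. Rrm2 was 30.6, 22.6, 26.6 and 33.6 FPKM in controls and 38.5, 38.0, 38.0 and 42.4 in knockouts. All 4 knockouts lay above all controls, replicate 4 being the highest and the other 3 at 38.0 to 38.5, and the mean was 1.38-fold higher (log2 change 0.47, SE 0.12, limma adjusted p = 0.012), and here knockout replicate 2 did not stand out. With small RNA genes removed and totals made equal, its call was lost (0.34, adjusted p = 0.13). The large subunit Rrm1 was 71.4 ± 4.74 FPKM and 73.9 ± 2.22, with a 95% interval of the log2 change from -0.11 to 0.22. The ratio of Rrm2 to Rrm1 was 0.348 to 0.457 in controls and 0.505 to 0.598 in knockouts.

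Thymidylate synthase (Tyms), which makes dTMP from dUMP, was 46.5 ± 9.04 FPKM in controls and 55.6 ± 11.6 in knockouts. Only 13.1% of the control level came from its protein-coding entry, and 57.1% came from an entry annotated for nonsense-mediated decay. The protein-coding entry was 5.65, 5.84, 5.89 and 6.43 FPKM in controls and 6.61, 9.32, 7.10 and 6.97 in knockouts, all above the controls (log2 change 0.28, limma adjusted p = 0.069). Thymidine kinase (Tk1), which salvages thymidine, was 26.3 ± 4.41 and 31.0 ± 9.06, with 43.9 in knockout replicate 2. Pseudogenes named by the gene symbol followed by ps exist for Tyms and Pcna, and those under other names were not searched for. Orc1, Orc6, Mcm7, Cdc45, Pole, Rfc2, Rfc4, Rfc5, Fen1, Lig1 and Tk1 share exonic bases with a gene on the opposite strand. Whether the counting used strand is not stated, so these levels may include fragments of the neighbour.

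Other genes of the pathway came from 3 further lists. Of 15 other licensing and firing genes, 4 were higher and 1 lower (background 25.3% and 12.1%). Orc3, Orc4 and Orc5, all subunits of the origin recognition complex, rose 1.34-fold, 1.35-fold and 1.42-fold by the means (limma adjusted p = 0.0012, 0.0024 and 0.0010). Orc3 was 39.2, 40.7, 40.4 and 42.2 FPKM in controls and 52.8, 52.9, 54.3 and 56.9 in knockouts, with knockout replicate 2 among the others. Mcm8, a helicase of recombination repair, rose from 20.1 ± 0.739 to 25.6 ± 1.05 FPKM (adjusted p = 0.0048). Recql4, a helicase linked to the start of replication, was lower, 22.9 ± 2.87 against 16.4 ± 0.759 (limma adjusted p = 0.0057), but turned to 0.24 (adjusted p = 0.39) under equal totals.

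Of 26 other polymerase, fork and maturation genes tested, 5 were higher and 1 lower (background 25.3% and 12.1%). The counts were 5 and 5 without knockout replicate 2 and 3 and 4 under median-ratio scaling, and 3 were higher when control replicate 1, 2 or 3 or knockout replicate 3 or 4 was left out. Pole3 and Tipin lost their calls in those 5 cases and under median-ratio scaling, and Pole3 also without knockout replicate 2; Dna2 lost its call on protein-coding entries alone (log2 change 0.20). The higher ones were Pole2 and Pole3 of polymerase epsilon, the small RPA subunit Rpa3, the nuclease Dna2 and the fork protection factor Tipin. Rpa3 was 30.2, 33.5, 38.5 and 51.8 FPKM in controls and 56.2, 77.0, 58.1 and 60.2 in knockouts (1.63-fold, limma adjusted p = 0.0089). The single gene called lower was Chtf18, which takes the place of Rfc1 in an alternative loader that shares Rfc2 to Rfc5. Chtf18 was 55.3, 50.8, 51.4 and 49.3 FPKM in controls and 21.4, 31.0, 21.7 and 19.6 in knockouts. No knockout came near a control, and it was 2.21-fold lower (log2 change -1.13, limma adjusted p = 0.000208), a call lost under equal totals (-0.43, adjusted p = 0.12). Of the 2 other large subunits that pair with Rfc2 to Rfc5, named here after their values were seen, Atad5 was 15.2 ± 1.27 and 15.5 ± 2.71 FPKM and Rad17 32.4 ± 1.98 and 36.0 ± 2.44, neither called.

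The other nucleotide supply genes held the largest changes of the pathway. Of 33 tested, 13 were higher and 2 lower, 39.4% and 6.06% against the background of 25.3% and 12.1%; under median-ratio scaling the counts were 10 and 8. Ctps2, an X-linked CTP synthase, was 4.49, 3.82, 4.09 and 3.58 FPKM in controls and 20.5, 23.5, 19.9 and 17.7 in knockouts. Every knockout was several times above every control, 5.10-fold by the means (log2 change 2.09, limma adjusted p = 4.69e-06). Its autosomal counterpart Ctps, named after its values were seen, was 114.9 ± 5.43 and 102.0 ± 5.89 and was not called. Prps1, the X-linked enzyme that makes the ribose donor of all nucleotides, was 16.6, 15.999, 16.2 and 13.5 FPKM in controls and 39.4, 34.9, 38.0 and 38.1 in knockouts (2.42-fold, adjusted p = 1.65e-05). Umps of pyrimidine synthesis rose 1.57-fold, and Adss and Paics of purine synthesis 1.41-fold and 1.28-fold (limma adjusted p = 0.0022, 0.0026 and 0.0036).

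**Figure D5:**
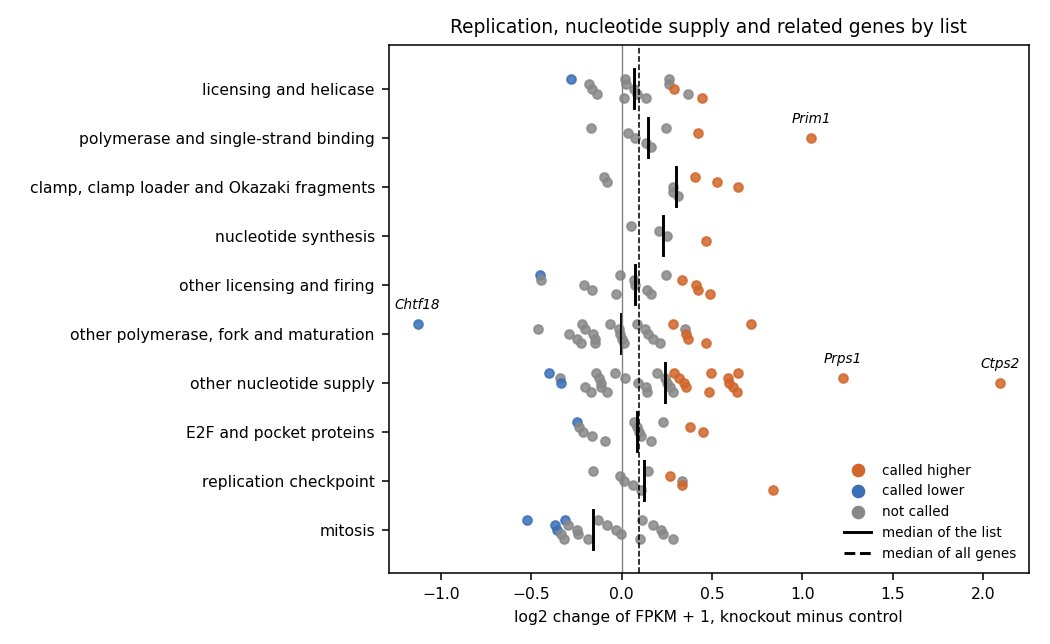
Log2 change of FPKM + 1, knockout minus control, of each gene in 10 lists, with called genes in colour, the median of each list as a black bar and the median of all genes tested as a dashed line. Ctps2, Prps1 and Prim1 lie to the right of 1 and Chtf18 to the left of -1, while most replication genes lie between -0.5 and 0.5.

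Regulators of these genes and a later phase of the cell cycle were listed for comparison. The background for the calls of each list was 25.3% of all genes tested higher and 12.1% lower. Of 13 E2F and pocket protein genes, E2f2 (2.53 ± 0.296 to 3.82 ± 0.539 FPKM) and E2f5 (25.5 ± 2.29 to 33.4 ± 3.15) were higher and E2f6, a repressing E2F, was lower (49.3 ± 3.56 to 41.4 ± 2.29); 10 were not called. The E2f6 call (log2 change -0.25, limma adjusted p = 0.035) was lost when any of 6 libraries was left out (control replicates 1, 3 and 4 and knockout replicates 1, 3 and 4), and its direction turned under equal totals (0.46, adjusted p = 0.088). Of 10 checkpoint genes, Rad1 (14.2 ± 1.58 to 26.3 ± 4.18 FPKM), Cdc25a (27.97 ± 1.33 to 33.9 ± 0.971) and Chek1 (46.6 ± 3.61 to 59.5 ± 8.81) were higher and none was lower (0 at an unadjusted p under 0.05). Chek1 lost its call under median-ratio scaling (limma adjusted p = 0.19), on protein-coding entries alone (log2 change 0.04) and when any single library other than knockout replicate 2 was left out. Of 20 mitosis genes, 0 were higher in the limma fit (1 at an unadjusted p under 0.05), and Cenpf, Aurkb, Bub1b and Ccnb1 were lower, with a median log2 change of -0.16 over the list against 0.16 over the replication genes; the 4 turned to positive values, none of them called, under equal totals. Without control replicate 1 those medians were -0.07 and 0.14, and without knockout replicate 2 they were -0.09 and 0.05. Library medians, relative to each gene's control mean on the log2 scale, overlapped between the groups for both lists. For mitosis they were -0.26 to 0.16 in controls and -0.30 to 0.10 in knockouts. For the replication genes they were -0.12 to 0.11 and 0.03 to 0.43. Ccnb1 lost its call when any library other than control replicate 2 or knockout replicate 1 was left out, and Bub1b without control replicate 1 or knockout replicate 3. Cenpf, a kinetochore protein, was 77.3, 80.5, 76.7 and 82.8 FPKM in controls and 51.6, 58.9, 55.0 and 54.1 in knockouts (limma adjusted p = 0.000482). The difference between the lists was not tested.

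The promoters of the replication genes share letters that the choice of genes did not use. RefSeq windows of 300 bases (250 before to 50 after a start) were matched by symbol for 28 of the 35 genes. They were searched on both strands for 6 E2F-type motifs (TTTGGCGC, TTTCCCGC, TTTCGCGC, TTTGCCGC, TTTGGCGG and TTTCCCGG, of which matches can overlap) and for the CCAAT box, CCAAT. An E2F-type motif was present for 13 of the 28 genes (46.4%), against 8.33% of 9147 tested genes and 3.99% of all 32851 windows. A CCAAT box was present for 67.9%, against 44.4% of tested genes and 37.4% of all windows. By call in the knockout, an E2F-type motif was in 2 of 6 higher genes (Mcm6 and Rfc3), in 0 of 1 lower and in 11 of 21 not called. In the 250 bases before the start, shown above, Mcm6 holds 3 matches. They begin 110, 106 and 47 bases before the start, the first 2 of them overlapping on opposite strands. Matches in the 50 bases after a start are included in the shares but are not shown. A match describes letters in the window only.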

How the data were processed

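RNA was measured in 4 control and 4 knockout libraries. The authors deposited FPKM for 45550 transcript entries; the tools named in the submitters' processing notes are TopHat, Bowtie, Cufflinks and Cuffdiff, with mm10 as the build. Versions, annotation and strand setting are not stated in the sources used here. Cufflinks divides fragments among entries that share sequence, so levels of overlapping genes are uncertain. Entries were summed by gene identifier. Genes averaging 1 FPKM or more were tested as log2(FPKM + 1), the pseudocount being 1, with limma 3.58.1 in R 4.3.3 (eBayes with an intensity trend, all 8 libraries, group as the only term, two-sided), with Benjamini-Hochberg adjusted p-values over 13483 genes and calls under 0.05. Log2 changes are on that scale, which understates the change of low genes, and folds are ratios of mean FPKM. The fit was tested on simulated data.

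Depth was inferred from steps between low FPKM in 2615 genes with a single transcript. For each library the total and the fragment length that made most values whole were taken. With these, 65.1% to 71.8% of values of up to 20 fragments were whole to within 0.1 fragment. Chance would give 20% at fixed settings, and more after such a choice. Any scaling of the deposited FPKM would enter the inferred totals. Transcript types and positions came from GENCODE M21, and promoter sequences from RefSeq on GRCm38.p6. Median-ratio scaling used the median, over genes, of each library's ratio to the geometric mean. The alternatives changed the pseudocount, the low-value filter, scaling, small RNAs, limma settings, the replicate block, values of 0, single entries and each library left out; median-ratio scaling without knockout replicate 2 and protein-coding entries alone were added after seeing the data. Same-numbered control and knockout libraries correlated at 0.22, -0.12, -0.13 and -0.09 in their deviations from the group means, so the numbers were not taken as pairs. Named were Kdm1a, the 37 genes, and up to 6 called genes of each other list by adjusted p; other names are marked in the text. The values of 1 gene that this rule names are left out. The 37 genes and the lists were chosen with earlier results of these data known.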

Additional observations from a re-analysis of the deposited data

Results flagged for a closer look

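Among the 70 sets of 4 libraries (35 genes in 2 groups), 5 held a library far from the other 3, its gap to the nearest, divided by the whole range, being above Dixon's critical value; chance flags about 1 in 20 sets. Knockout replicate 2 was that library in 3 of them: Mcm3 at 132.7 FPKM (115.2 to 118.0 in the other knockouts), Rpa2 at 195.5 FPKM (136.5 to 140.7) and Rfc4 at 166.8 FPKM (108.8 to 114.8). Mcm2 stood at 138.0 FPKM in control replicate 1, against 121.9 to 123.8 in the other controls. Rrm2 stood at 42.4 FPKM in knockout replicate 4, against 38.0 to 38.5 in the other knockouts. The causes were not tested.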

How the results depend on the processing

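Of 734 alternative values for the replication genes, 659 kept their direction and side of the threshold (changes of sign in genes called under neither setting are counted among them). Counted by gene, only 2 of the 35 did so under every alternative, and 19 under every alternative other than equal FPKM totals. With each library left out in turn, of the 35 genes those called higher numbered 3 to 10 and lower 0 to 2, all genes 2621 to 3816 and 1165 to 2034, other replication and nucleotide genes 18 to 24 and 3 to 11, and E2F, checkpoint and mitosis genes 4 to 8 and 2 to 7. Under equal FPKM totals the counts of higher and lower genes were 33 and 0 for the 35 genes, 9549 and 151 for all genes, 59 and 0 for other replication and nucleotide genes, and 30 and 0 for E2F, checkpoint and mitosis genes; there Gins4 turned to 0.57, Mcm2 to 0.44, Mcm7 to 0.55, Rfc1 to 0.61, Rfc5 to 0.63, Rpa1 to 0.55, Cenpf to 0.19, Recql4 to 0.24, Aurkb to 0.40, Bub1b to 0.35, E2f6 to 0.46 and Ccnb1 to 0.35 on the log2 scale. Each of these values under equal totals lay below the median of all genes in that setting, 0.74. Pola1 turned to -0.35 on protein-coding entries, where 2 of the 35 genes were called lower. Under median-ratio scaling 4 of the 35 genes were lower, 15 other replication and nucleotide genes were lower, and E2F, checkpoint and mitosis genes were 3 higher and 9 lower. The same scaling without knockout replicate 2 gave 6 of the 35 genes lower, 2925 of all genes lower, 18 other replication and nucleotide genes lower, and 3 higher and 8 lower among E2F, checkpoint and mitosis genes. With small RNA genes removed and totals made equal, 3 of the 35 were lower, 2241 of all genes higher, 11 and 9 other replication and nucleotide genes higher and lower, and 1 and 3 E2F, checkpoint and mitosis genes. A minimum of 5 FPKM tested fewer genes and called 2164 higher, and single entries gave 7 other replication and nucleotide genes lower. With the replicate number as a block, 5 of the 35 genes were higher and 0 lower, against 22.1% and 10.4% of all genes tested (2983 and 1408): Mcm2, Mcm6, Orc6, Rfc2 and Rfc3 lost their calls (adjusted p = 0.057 to 0.11) and Gins3 gained one; the cause was not tested. Depth is unknown beyond the inferred totals, so no counting interval is given for FPKM.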
